A study of Xenopus tropicalis with 18 samples.

Results

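The set described here holds 100 genes of Xenopus tropicalis whose level differed less than 2-fold between control foregut, control hindgut and control head with pharynx, and which were lower in foregut of embryos treated with cyclopamine than in control foregut. They were chosen from 28863 identifiers by their CPM (a gene's count scaled to the total count of its library). A mean of at least 5 CPM in control foregut was met by 12622 identifiers, and 9532 of these were flat over the 3 regions. Of the flat genes, 1028 had every cyclopamine library below every control foregut library. A further condition, that the means in BMS493 foregut and in Rfx6 morpholino foregut were each at least 0.8 of the control foregut mean, left 672. The 100 with the lowest ratio of cyclopamine to control foregut were kept and are ranked by that ratio. Because the rule used the means of all 6 groups, the levels and differences given here describe the chosen genes and are not tests of them.

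RNA came from explants of mesoderm and endoderm dissected at stage 33, 8 explants pooled for each library, in 6 groups of 3 libraries. Cyclopamine foregut came from embryos kept in 40 µM cyclopamine, and BMS493 foregut from embryos kept in 100 nM BMS493, both from stage 15 to harvest. Rfx6 morpholino foregut came from embryos given 1 ng of an Rfx6 morpholino, 500 pg in each cell at the 2-cell stage, and 0.1% DMSO. The control hindgut and the control head with pharynx had 0.1% DMSO alone. Control foregut had 0.1% DMSO and 1 ng of a mismatch morpholino. The embryos were wild type. Of the groups set against control foregut, only Rfx6 morpholino foregut has a morpholino named in its labels, and the labels of both drug groups name no DMSO either. Whether embryos of the drug groups and of the other regions were injected is not stated. As labelled, the effects of the drug, of the mismatch morpholino and of DMSO cannot be told apart in the cyclopamine and BMS493 comparisons, nor can region and mismatch morpholino in the region comparisons. Which clutch each pool came from is not stated in the labels, so the spread between libraries may be partly technical. Libraries held 26006163 to 96814679 counts, so 1 CPM stood for at least 26 counts, and no member had fewer than 81 counts in any library.

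Hedgehog ligands made by the gut endoderm bind the receptor Patched on neighbouring mesoderm. Binding releases Smoothened, which lets Gli transcription factors activate their targets, among them the genes for Patched and for Gli proteins. Cyclopamine is a plant steroid alkaloid that binds and blocks Smoothened. BMS493 silences retinoic acid receptors as an inverse agonist, and Rfx6 is a transcription factor of endoderm needed for endocrine pancreas. In the vertebrate gut, Hedgehog signalling is known for patterning the mesoderm that becomes smooth muscle and connective tissue. The files name genes only by identifiers, and 0 of 28863 were found in the RefSeq gene table, so no member can be tied to a symbol, a function or a place in the genome. Whether Hedgehog targets are among the members, and the levels of Rfx6 and of cell type markers, therefore could not be read. In pooled tissue, fewer cells of a type and less RNA per cell cannot be told apart.

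The ratio of cyclopamine to control foregut ran from 0.324 to 0.764 over the members, with a median of 0.709, while the median over all 9532 flat genes was 1.04. The set is thus a short tail of large decreases on a broad base of modest ones. Only 6 members were at less than 0.5 of control foregut, 34 lay between 0.5 and 0.7, and 60 lay at 0.7 or above. The limit cuts a continuous series. The last members inside it had ratios of 0.763827 (rank 99) and 0.764159 (rank 100), and the first genes outside had 0.764338 and 0.765146. Together the members held 0.366 ± 0.0273% of all counts in cyclopamine foregut, 0.519 ± 0.0039% in BMS493 foregut, 0.499 ± 0.0321% in Rfx6 morpholino foregut and 0.529 ± 0.0416% in control foregut (SD, n = 3 in each group).

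**Figure D1:**
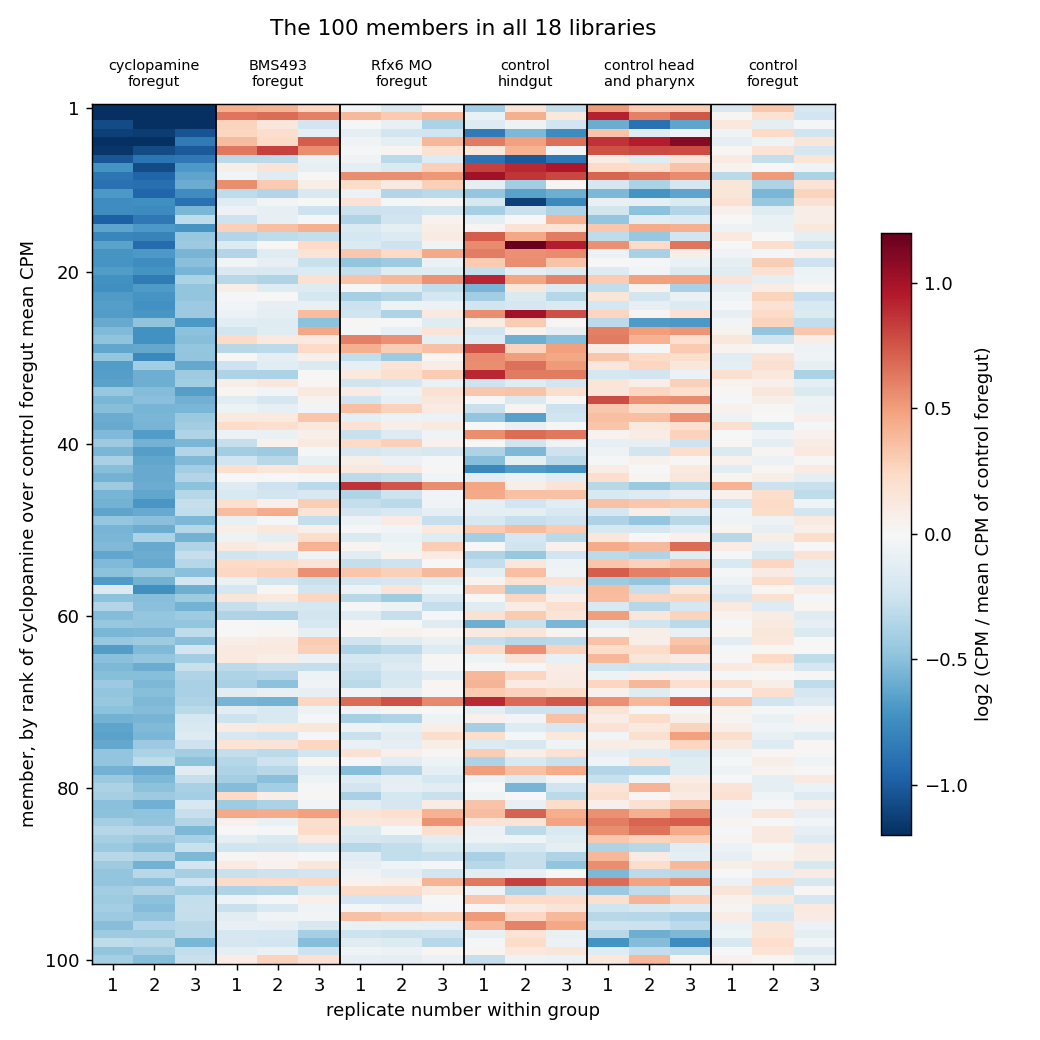
Level of each of the 100 members (rows, ordered by rank) in each of the 18 libraries (columns, grouped), as log2 of the CPM over the mean CPM of control foregut, with the darkest colours also standing for differences past the ends of the scale. The 3 cyclopamine columns are blue from top to bottom, most deeply in the first 6 rows, while the region columns show rows of either colour.

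The member with the lowest ratio was XBXT10g008683. It had 32.2, 29.9 and 30.1 CPM in cyclopamine foregut, against 83.0, 118.7 and 83.3 CPM in control foregut, a ratio of means of 0.324. It had 127.7, 126.4 and 112.8 CPM in BMS493 foregut and 92.9, 83.7 and 94.7 CPM in Rfx6 morpholino foregut. The cyclopamine libraries lay close together and far under every other library. It had 71.8, 105.5 and 77.8 CPM in control hindgut and 135.4, 117.3 and 117.1 CPM in control head with pharynx. The libraries of those 2 regions did not overlap, and a difference between them was not tested. Control foregut replicate 2 was the highest of its group, and without it the log2 fold change of -1.67 (SE 0.12, edgeR) was -1.48.

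XBXT10g013382, the second in rank, had 6.78, 6.79 and 7.93 CPM in cyclopamine foregut, against 20.6, 22.8 and 17.2 CPM in control foregut. In BMS493 foregut it stood above control foregut, at 31.6, 32.2 and 30.8 CPM, and in Rfx6 morpholino foregut it had 26.4, 25.1 and 26.4 CPM. Both of those groups lay above all 3 control foregut libraries. Of flat genes, 40.5% lay wholly above control foregut in BMS493 foregut and 20.6% in Rfx6 morpholino foregut. Among regions it was highest in control head with pharynx, at 38.3, 30.6 and 33.9 CPM, with 19.1, 27.1 and 22 CPM in control hindgut. Its log2 fold change under cyclopamine was -1.54 (SE 0.10, edgeR). By mean CPM, XBXT10g008683 and XBXT10g013382 were both highest among regions in control head with pharynx. Both also had a BMS493 mean above control foregut, at 1.29 and 1.56 times it. Their relative lengths, a measure explained with the other lengths further on, were 3.02 and 2.80. The members of ranks 3, 4, 5 and 6 had relative lengths of 0.333, 6.06, 0.77 and 1.08, so a length near 3 was not shared by them.

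**Figure D2:**
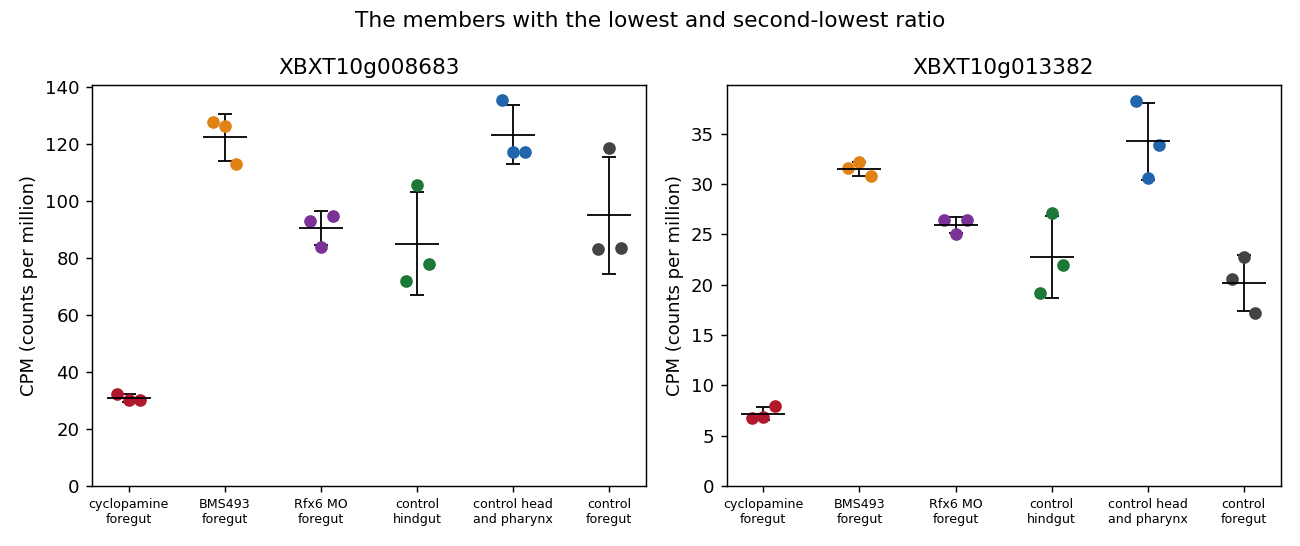
CPM of the 2 lowest-ranked members by group, with a point for each library, a horizontal bar for the mean and error bars for the SD (n = 3 in each group). In both panels the cyclopamine points lie close together below every other point. Control foregut replicate 2 is the highest control foregut point in each.

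Behind XBXT10g008683 and XBXT10g013382 came 4 more members at less than 0.5 of control foregut. The member of rank 3 had 4.99, 4.10 and 4.19 CPM in cyclopamine foregut, against 11.4, 9.70 and 10.3 CPM in control foregut. The member of rank 4 had 13.4, 13.3 and 14.3 CPM in cyclopamine foregut, against 28.4, 34.5 and 24.7 CPM in control foregut. The member of rank 5 had 5.92, 5.72 and 7.54 CPM in cyclopamine foregut, against 12.6, 13.0 and 15 CPM in control foregut. In each the groups stood far apart, with the highest cyclopamine library at 0.515 to 0.599 of the lowest control foregut library. The member of rank 6 had 3.34, 3.58 and 3.74 CPM in cyclopamine foregut, against 7.63, 8.37 and 6.54 CPM in control foregut. In BMS493 foregut it had 11.6, 13.3 and 11.1 CPM, above all its control foregut libraries. Ranks 5 and 6, like rank 2, were highest in control head with pharynx, at 1.96 and 1.71 times control foregut, and stood at 1.38 and 1.60 times control foregut under BMS493.

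The first 20 members were mixed under the other treatments and over the regions. Their ratio under cyclopamine ran from 0.324 to 0.639, while under BMS493 it ran from 0.804 to 1.60 and under the Rfx6 morpholino from 0.807 to 1.46. The BMS493 mean was above control foregut in 10 of them and the Rfx6 morpholino mean in 8. Their hindgut ratios ran from 0.529 (rank 7) to 1.94 (rank 17), close to the full width the rule allows. Cyclopamine foregut was the lowest of the 6 groups in 19 of the 20. The exception was rank 7, whose control hindgut ratio of 0.529 was level with its cyclopamine ratio of 0.529.

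Over the whole set, cyclopamine foregut had the lowest mean of the 6 groups in 96 of 100 members, as it did in 10.3% of flat genes. Every cyclopamine library lay below all 15 other libraries in 56 members, where the background over flat genes was 1.72%. Against BMS493 foregut alone the cyclopamine libraries were all lower in 82 members (33.9% of flat genes) and against Rfx6 morpholino foregut in 89 (21.3%). Against control hindgut they were all lower in 82 members (17.4%), and against control head with pharynx in 83 (45%). Against control foregut the rule fixed the count at 100 (10.8%). These shares follow in part from the choice of genes low under cyclopamine, and nothing more is read from them.

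The separation from control foregut was narrow for many members. The highest cyclopamine library stood at 0.389 to 0.996 of the lowest control foregut library, with a median of 0.846. It was under 0.75 in 12 members and at 0.95 or above in another 12. Replicates within cyclopamine foregut varied more for the members than for flat genes at large, with a median coefficient of variation of 8.31% against 4.82%. The order was the same in the other foregut groups. The median was 7.29% against 4.74% in BMS493 foregut and 7.18% against 5.26% in Rfx6 morpholino foregut. In control foregut it was 9.84% for the members and 7.68% for flat genes. Members and flat genes were not matched for level.

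The cyclopamine libraries did not fall equally. The median member stood at 0.690, 0.674 and 0.746 of the control foregut mean in cyclopamine replicates 1, 2 and 3, and replicate 3 was the highest of its group in 69 members (45.4% of flat genes). Replicate 3 was also the highest of its group for most members in BMS493 foregut (60 members, 48.6% of flat genes) and in Rfx6 morpholino foregut (59 members, 48.7%). In control foregut, replicate 2 was the highest in 46 members (41.9% of flat genes) and replicate 3 the lowest in 45 (36.9%). Replicate 3 had the lowest total count of its group in cyclopamine (35288038), BMS493 (29667904), Rfx6 morpholino (33172422) and control foregut (26006163). The part of depth in these orders was not tested. Over all flat genes the medians of the same cyclopamine libraries were 1.05, 1.03 and 1.05.

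Across the table, edgeR's quasi-likelihood test on 12 foregut libraries called 9.71% of 18542 genes lower in cyclopamine foregut than in control foregut (Benjamini-Hochberg adjusted p under 0.05). All 100 members passed its filter on low counts, which the minimum of 5 CPM made certain, and 99 of them were called lower and 0 higher (10.2% of all tested genes were higher). Since the rule chose the genes on this contrast, the count is a description. The exception had rank 70, with 4.21, 3.97 and 4.45 CPM in cyclopamine foregut, against 7.20, 4.89 and 5.19 CPM in control foregut. The median log2 fold change of the members was -0.54 with a median SE of 0.11, and all tested genes had a median of 0.00. With replicates 1 and 2 of each treated group summed, which leaves 2 libraries in each, 47 were called lower. The share of all tested genes called with this setting was not computed, so nothing is read from the smaller count.

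The other treatments were limited by the rule only from below, at a ratio of 0.8. Under BMS493 the members ran from 0.804 to 1.60 of control foregut, with a median of 0.955, while flat genes had a median of 1.08. The mean was above control foregut in 39 members (66% of flat genes) and at least 1.25 times control foregut in 9 (18.6%). Under the Rfx6 morpholino they ran from 0.801 to 1.66, with a median of 0.949 against 1.03 for flat genes. There 35 were above control foregut (60.3% of flat genes) and 9 were at least 1.25 times control foregut (6.85%). Both means were above control foregut in 17 members (47.4% of flat genes) and both below it in 43 (21.1%). The comparisons share the control foregut libraries. The rule required these to lie above every cyclopamine library, so nothing is read from the shares.

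**Figure D3:**
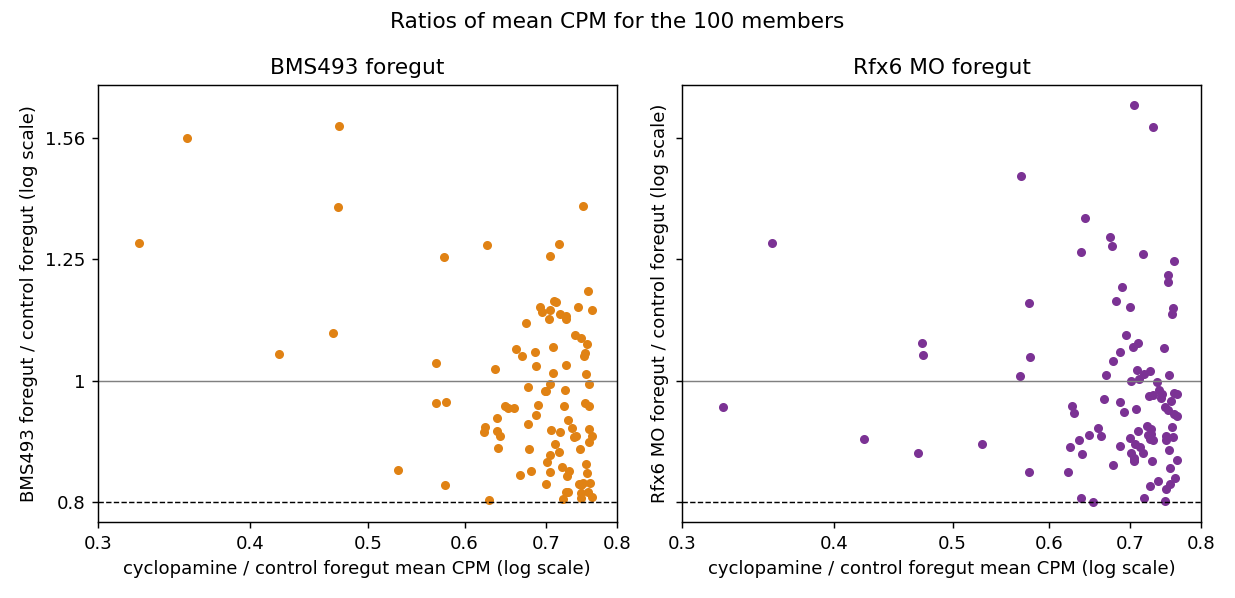
Ratio of mean CPM in BMS493 foregut (left) and Rfx6 morpholino foregut (right) to control foregut, against the ratio of cyclopamine to control foregut, on log axes, with a point for each of the 100 members. The dashed line is the limit of 0.8 and the grey line is 1. Most points crowd between 0.6 and 0.764 on the horizontal axis, and a few reach 1.25 to 1.66 on the vertical axes.

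How many of these genes were called lower under BMS493 as well depended on the scaling, and on each scale some were. The rule compares CPM by total count, on which the median of all tested genes was 0.13 higher (log2) in BMS493 foregut than in control foregut. With composition scaling (TMM, which sets the bulk of genes level), edgeR called 34 members lower in BMS493 foregut, where 24.3% of all tested genes were lower, and 5 higher (22.3%). With total counts it called 11 lower (17.5% of all tested genes) and 8 higher (34.3%), so the members' share of lower calls was above the background on one scale and below it on the other. Since the rule used the BMS493 ratio and the same control foregut libraries, nothing is read from either share. The 34 called with composition scaling had a median log2 fold change of -0.37 under BMS493 and -0.50 under cyclopamine, and the cyclopamine value was the lower in 33 of them. Among the 61 members not called under BMS493 the medians were -0.10 under BMS493 and -0.55 under cyclopamine. By CPM every member stood at 0.764 or less of control foregut under cyclopamine and at 0.8 or more under BMS493. The order of these treatments was thus set almost wholly by the choice of genes, and nothing is read from it. No member before rank 7 was among the 34.

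With composition scaling, edgeR called 6 members lower in Rfx6 morpholino foregut (6.01% of flat genes, 8.99% of all tested genes). It called 4 higher (6.66% of flat genes, 8.25% of all tested genes). Neither count was above the share of flat genes. The rule used the Rfx6 morpholino ratio and the same control foregut libraries, so nothing is read from either count. XBXT10g013382 was among those called higher in Rfx6 morpholino foregut and in BMS493 foregut. The highest Rfx6 morpholino ratio belonged to rank 45, with 47.7, 44.0 and 38.5 CPM in Rfx6 morpholino foregut, against 34.9, 21.9 and 21.8 CPM in control foregut. Its Rfx6 morpholino libraries were all above its control foregut libraries, of which replicate 1 stood alone at the top. In cyclopamine foregut it had 19.4, 17.3 and 18.6 CPM. The count of calls under the Rfx6 morpholino was 10 in all and ranged from 2 to 16 when a library was left out. In all, 56 members were called under neither BMS493 nor the Rfx6 morpholino (55.6% of flat genes), and 63 were called lower under neither (74.7%).

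Flatness over the regions was loose. The highest region stood at a median of 1.36 times the lowest, for members as for flat genes, and 32 members kept all regions within 1.25-fold (32.7% of flat genes). By CPM the highest region was control head with pharynx in 43 members, control hindgut in 37 and control foregut in 20, against 62%, 21% and 17% of flat genes. Control hindgut was at least 1.25 times control foregut in 23 members (8.38% of flat genes). With composition scaling 31 members were called higher in control hindgut than in control foregut (18.1% of flat genes, 16.2% of 18551 tested genes). Another 4 were called lower (8.1% of flat genes, 16.6% of tested genes). In control head with pharynx 10 were called higher than in control foregut (19.8% of flat genes, 26.4% of tested genes). There 31 were called lower (25.3% of flat genes, 27.6% of tested genes). The rule used the region means and the same control foregut libraries, so nothing is read from these shares on either scale.

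The direction against head with pharynx turned with the scaling. With total counts 29 members were called higher in control head with pharynx than in control foregut (40.4% of all tested genes) and 18 lower (20.2%), and in control hindgut 28 were called higher (11.3%) and 16 lower (28.7%). The members' median log2 difference, control head with pharynx over control foregut, was -0.08 with composition scaling and 0.11 with total counts, where the median of all tested genes was 0.18. For control hindgut over control foregut it was 0.14 with composition scaling and 0.00 with total counts, where all tested genes had -0.15. The distance between the members' median and that of all tested genes is the same on both scales by construction. Both medians rest on the same control foregut libraries. With composition scaling, 38 members were called in neither region (43.3% of flat genes), and 25 were called in none of the region, BMS493 and Rfx6 morpholino comparisons (34.4%). The 25 include XBXT10g008683, which has the largest decrease.

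Levels between genes can be compared only per length, in TPM, the authors' measure scaled for transcript length and library size. By that measure the members were low in abundance. TPM divides counts by length, so this is not independent of the length of many members, described further on. Their median was 6.65 TPM in cyclopamine foregut and 10.6 TPM in control foregut, where flat genes had 20.4 TPM in cyclopamine foregut and 19.8 TPM in control foregut. Of the members, 42 fell in the lowest quintile of flat genes by mean TPM over the 6 groups. The higher quintiles held 21, 18, 14 and 5. That mean includes cyclopamine foregut, where the members were chosen to be low. XBXT10g008683 had a mean of 6.12 TPM in cyclopamine foregut and 19.4 TPM in control foregut, a level near that of the median flat gene in control tissue. XBXT10g013382 had 1.54 TPM in cyclopamine foregut and 4.44 TPM in control foregut.

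The member with the highest level per length had rank 43, at 180.9, 169.3 and 197.6 TPM in cyclopamine foregut, against 238.2, 281.6 and 274.9 TPM in control foregut. Its groups did not overlap in TPM either. It was also among the 4 members in which cyclopamine foregut was not the lowest group, since its mean in control hindgut was 163.1 TPM. The next in level had rank 90, with means of 63.3 TPM in cyclopamine foregut and 85.2 TPM in control foregut, and rank 76, with 56.2 TPM in cyclopamine foregut and 77.0 TPM in control foregut. Measured in TPM, the median ratio of cyclopamine to control foregut was 0.698. In 87 members every cyclopamine library remained below every control foregut library. The genes were chosen for this separation in CPM from the same libraries. Its share of flat genes in TPM was not computed, so nothing is read from the count.

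Many members were long, although length was not common to all. The rule set no limit on length and used CPM, which is not scaled for length. The flat genes passed the same minimum CPM, and any part of length in the choice was not tested. Counts divided by TPM give each gene's effective transcript length as estimated by the authors' software, and it is expressed here relative to the median flat gene of the same library. All 100 members and 9525 of 9532 flat genes had a value (at least 50 counts and 0.5 TPM in every library). The members had a median relative length of 1.51 (quartiles 0.737 and 2.48), where flat genes had quartiles of 0.622 and 1.59. The longest quintile of flat genes held 43 of the members, and the quintiles below it held 19, 9, 13 and 16 down to the shortest, so that 38 members lay in the 3 shortest quintiles. The median length fell along the ranking, with 2.04 for ranks 1 to 20, 1.85 for ranks 21 to 40, 1.56 for ranks 41 to 60, 1.44 for ranks 61 to 80 and 1.34 for ranks 81 to 100. The other genes that met every condition but ranked beyond 100 had a median of 1.07.

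CPM is not scaled for length, and the members with the highest CPM were long. The member of rank 19 had the highest CPM, with 331.8, 323.7 and 384.9 CPM in cyclopamine foregut, against 503.9, 668.6 and 458.2 CPM in control foregut, and a relative length of 5.40. The next by CPM in control foregut, with ranks 91, 46, 44 and 65, had relative lengths of 4.15 to 5.37. By TPM, the 3 members with the highest level in control foregut (ranks 43, 90 and 76) were short, with relative lengths of 0.359, 0.162 and 0.468. The next by TPM, ranks 13 and 81, were longer than the median flat gene, at 2.22 and 1.35.

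Among flat genes at large the relation with length was slight. Their median ratio of cyclopamine to control foregut was 1.04, 1.05, 1.05, 1.04 and 1.02 from the shortest to the longest quintile, and Spearman's rho between ratio and length was -0.07 across 9525 genes, which share libraries and are not independent. Control foregut libraries themselves differed by length. The median log2 ratio of the longest quintile less that of the shortest was -0.08, -0.07 and 0.04 in cyclopamine replicates 1, 2 and 3, and 0.01, 0.15 and -0.15 in control foregut replicates 1, 2 and 3. Control foregut replicates 2 and 3 thus lay further apart by length than any of the cyclopamine replicates did. The part of this difference in the choice of long members was not tested.

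**Figure D4:**
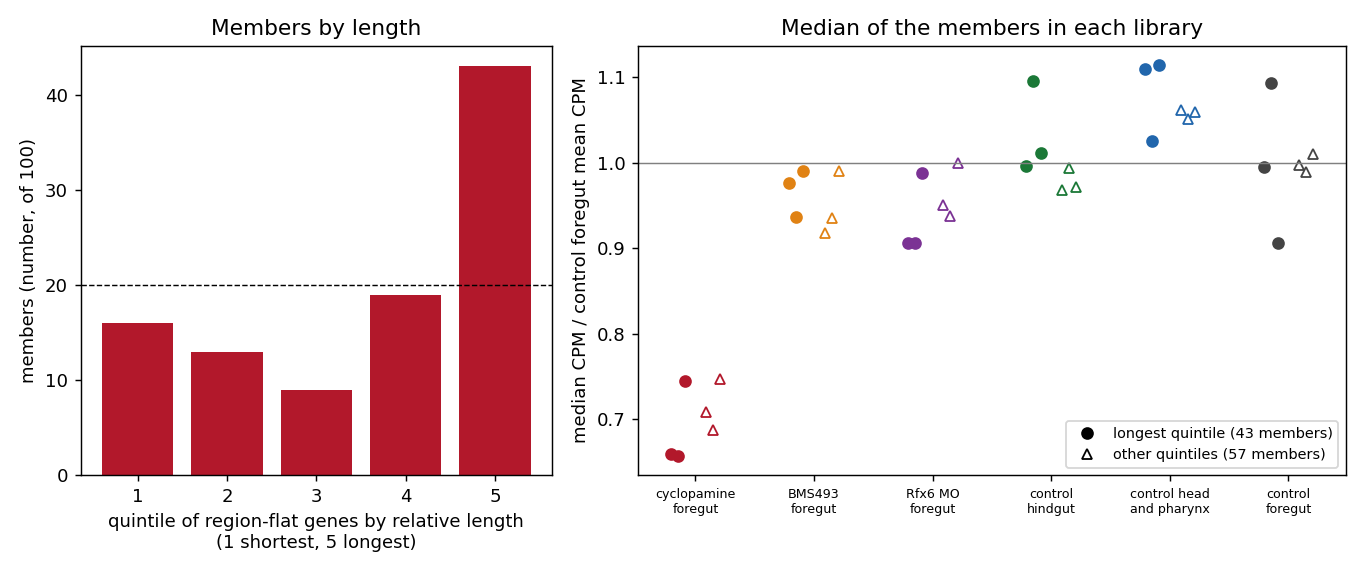
Left, number of members in each quintile of flat genes by relative length, where the dashed line marks 20, the number in each quintile if members were spread evenly. Right, median over the members of CPM relative to the control foregut mean, with a point for each library and long members (filled circles) apart from the others (open triangles). Long members of control foregut spread from 0.906 to 1.09, and the cyclopamine libraries lie at 0.658 to 0.747 for both kinds.

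The choice of genes held long and shorter members alike at 0.764 or less of control foregut under cyclopamine. Nothing is therefore read from how near their ratios lie. The 43 in the longest quintile had medians of 0.660, 0.658 and 0.745 of the control foregut mean in cyclopamine replicates 1, 2 and 3, and the other 57 had 0.709, 0.687 and 0.747. The long members were thus the lower in each of these libraries. In control foregut the long members had medians of 0.996, 1.09 and 0.906 in replicates 1, 2 and 3. The others had 0.997, 0.989 and 1.01. Control foregut replicate 2 was the highest of its group in 30 of the 43 long members and in 16 of the 57 others. Without control foregut replicate 2 the rule found 36 of its 100 genes in the longest quintile, and without replicate 3 it found 59. Applied to TPM, with a minimum of 5 TPM in place of 5 CPM, it found 30. The quintiles were still those of the genes flat by CPM. The share of genes flat by TPM in the longest quintile was not computed, so 30 cannot be set against 43.

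For most members the estimated transcript length differed little between cyclopamine and control foregut. The median absolute shift was 0.0056 on the log2 scale for members and 0.0051 for flat genes. The group means differed by over 0.2 in 5 members (4.41% of flat genes), which were chosen after their values were seen. In these the ratio of cyclopamine to control foregut depended on the unit. Rank 9 had a ratio of 0.569 by CPM and 0.402 by TPM, and rank 60 had 0.723 by CPM and 0.594 by TPM. In the member of rank 15 the ratio was 0.626 by CPM and 0.868 by TPM. For the member of rank 22 the direction of the means turned, with a ratio of 0.647 by CPM and 1.36 by TPM. Per length it stood at 4.62, 1.29 and 2.88 TPM in cyclopamine foregut, against 1.95, 2.38 and 2.12 TPM in control foregut, so its groups overlapped. The libraries did not overlap in length in 1 of the 5 (1.18% of flat genes), the member of rank 64. Its relative length was 1.33, 1.09 and 1.45 in cyclopamine foregut, against 0.875, 0.948 and 0.978 in control foregut. Per length it stood at 4.98, 6.73 and 6.46 TPM in cyclopamine foregut, against 12, 12.2 and 10.8 TPM in control foregut, a wider gap than its CPM ratio of 0.727.

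By CPM from total counts, decreases were the less common direction among flat genes. With every library on the same side, 10.8% of flat genes were below control foregut under cyclopamine and 27% were above it. After requiring the other treatments to stay within 0.8 of control foregut for the lower side, or within 1.25 times for the higher side, 672 genes were lower and 1579 higher under cyclopamine. The same conditions gave 1065 lower and 3087 higher under BMS493, and 473 lower and 1053 higher under the Rfx6 morpholino. Total counts placed the median flat gene above 1 in each treated group. With composition scaling edgeR called 8.95% of flat genes lower and 10.4% higher under cyclopamine, and 6.01% lower and 6.66% higher under the Rfx6 morpholino. Under BMS493 the order was the opposite of that by total counts, with 23.4% of flat genes lower and 16.4% higher.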

How the data were processed

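The authors deposited expected counts, of which 100% are whole numbers, and TPM, which they scaled for length and depth, for 18 libraries without gene symbols. The submitters' processing notes name RSEM 1.3.0 and Bowtie2. A genome build and an annotation were not stated in any source used here. A stranded mRNA kit was used, per the labels. Counts without an identifier were 0. How reads of near-identical genes were shared was not examined, so single identifiers of such families are uncertain. No replicate pair agreed within counting noise. The chi-square per degree of freedom was 3.22 for BMS493 replicates 1 and 2, the closest pair, and 8.98 to 59.9 for the others. In cyclopamine foregut it was 32.3 for replicates 1 and 2 and 21.6 for replicates 1 and 3. In BMS493 foregut it was 36.0 for replicates 1 and 3 and 32.2 for replicates 2 and 3. Whether replicates 1 and 2 of a group came from the same pool was not tested, and their summing does not mark them so.

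CPM used column totals. The members and lists were chosen with earlier results of these data known. Without symbols the pathway and marker lists could not be used, and by rule only the 2 lowest members are named by identifier, the others by rank. Fits used edgeR 4.0.16 in R 4.3.3 (quasi-likelihood test, robust, TMM, minimum count of 10) with group as the only term, on 12 foregut libraries (18542 genes tested) and on 9 control libraries (18551 genes tested). The threshold for a call was an adjusted p (Benjamini-Hochberg) of 0.05. SE was derived from the fold change and its F statistic. The edgeR step was tested on simulated data. Alternatives were DESeq2 1.42.0, other scalings, filters, library subsets and rule limits.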

Additional observations from a re-analysis of the deposited data

How the results depend on the processing

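The genes in the set changed with the rule. Fold changes of the sets that the altered rules chose were not computed. Of the 100 members, 57 were chosen again from TPM (where the minimum is 5 TPM), 67 with TMM-scaled CPM, 49 with a ratio limit of 0.9, 66 with a region limit of 1.5 and 79 with a minimum of 10 CPM. Leaving out a cyclopamine or control foregut library kept 63 to 89 of them, with 63 without control foregut replicate 2 and 66 without replicate 3. Genes meeting every condition numbered 672, and 409 with a ratio limit of 0.9. That number was 716 to 1226 with a library left out, being 1226 without cyclopamine replicate 3 and 1085 without control foregut replicate 3, where fewer libraries must be kept apart. Members in the longest quintile numbered 36 to 59 with a library left out.

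Members called lower in cyclopamine foregut numbered 99 with DESeq2 and with the replicate block. They numbered 80 to 96 with a library left out and 47 with treated replicates 1 and 2 summed. Apart from total counts, shares over all tested genes were not computed for the alternative settings. The median log2 fold change of the members was -0.60 to -0.51 with a library left out. The rule chose genes with every cyclopamine library below every control foregut library. The direction was thus set by the choice, and nothing is read from it. Members called under BMS493 numbered 39, but 19 with total counts, 25 with only the 6 libraries compared, 17 with replicates summed and 23 to 39 with a library left out. Under the Rfx6 morpholino the 10 calls became 21 with DESeq2, 17 with the replicate block, 4 with only the 6 libraries compared, 0 with replicates summed and 2 to 16 with a library left out. The block changed no other call count by over 1.5 times, and deviations of same-numbered treated and control foregut libraries correlated at -0.10 to 0.09, so the numbers were not taken as pairs. All 3 cyclopamine libraries correlated best with their own number in control foregut, which is a hint from the data. Over all settings run, calls in control hindgut (33 to 44) and in control head with pharynx (34 to 48) stayed within 1.5 times of 35 and 41. Beyond fewer libraries or genes, the cause of these moves was not tested. The comparisons of BMS493, Rfx6 morpholino and regions under these settings, and the length counts, were added after seeing the data.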
